A study of Mus musculus with 6 samples.

Results

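MHC class II genes encode the surface molecules with which macrophages, dendritic cells and B cells show peptides to CD4 T cells. The set described here was fixed by gene symbol and holds 10 of the 11789 genes in the deposited table. It comprises the alpha and beta chains H2-Aa, H2-Ab1 and H2-Eb1, the invariant chain Cd74, the peptide loading chains H2-DMa, H2-DMb1 and H2-DMb2, the class II transactivator Ciita, and the costimulatory ligands Cd80 and Cd86. All 10 symbols were found, each with 1 gene ID, and all 10 had a mean of at least 1 FPKM (fragment number scaled to transcript length and to library size) over the 6 libraries.

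Expression was measured by RNA-seq in alveolar macrophages of mice, phagocytes that live on the airspace surface of the lung. Per the labels, 3 samples came from A20 conditional knockout mice (columns A20-1, A20-3 and A20-4) and 3 from wild-type mice (columns BLM1, BLM2 and BLM3), all of strain C57BL/6. The series title says that all mice had been exposed to BLM, an abbreviation it does not spell out. A20, encoded by Tnfaip3, is a ubiquitin-editing protein known to restrain NF-kB signalling. The labels name neither the Cre driver, the cells in which the gene was deleted, the ages, the dose nor the time after exposure, and do not say how many animals stand behind a replicate. The p-values therefore measure only the spread between these samples, which may be technical.

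Class II alpha and beta chains pair in the endoplasmic reticulum with the invariant chain, which blocks the peptide groove and guides the complex to endosomes. Proteases trim the invariant chain there, H2-DM exchanges its last fragment for peptide, and H2-O restrains H2-DM, mainly in B cells. Transcription of these genes depends on Ciita, which does not bind DNA itself but is recruited by RFX, CREB and NF-Y proteins to conserved X and Y boxes upstream of each gene. Mice of the C57BL/6 background carry a defective H2-Ea gene, so H2-Eb1 transcript in this strain does not give an I-E molecule at the surface. Resting alveolar macrophages are known for low surface class II compared with lung dendritic cells.

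On GRCm38, the build named in the submitters' processing notes, 6 of the 10 genes lie in the class II region of chromosome 17, as the deposited table places them. From the centromeric side these were H2-DMa (34135182 to 34139101), H2-DMb2 (34143307 to 34151553), H2-DMb1 (34153072 to 34160230), H2-Ab1 (34263209 to 34269418), H2-Aa (34282744 to 34287827, minus strand) and H2-Eb1 (34305877 to 34316199). Of the other class II genes measured, H2-Oa (34092340 to 34095234) lies before H2-DMa, H2-Ob (34238903 to 34245907) between H2-DMb1 and H2-Ab1, and H2-Eb2 (34325665 to 34340229) after H2-Eb1. Ciita (10488178 to 10527564), Cd86 (36603869 to 36666081, minus strand) and Cd80 (38458933 to 38486933) lie on chromosome 16, and Cd74 on another chromosome.

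Promoter sequence, 250 bases before to 50 after a RefSeq start site on GRCm38.p6, was at hand for 6 of the 10 genes and for H2-Oa, H2-Ob and H2-Eb2. The windows below are shown because they carry the X and Y box region through which Ciita acts. Capitals mark AAC, the centre of the X box, and GATTGG, the Y box, which is an inverted CCAAT box. The windows are chr17:34287860-34287909 (minus strand) for H2-Aa, chr17:34305771-34305819 for H2-Eb1, chr17:34145121-34145170 for H2-DMb2, chr17:34325538-34325586 for H2-Eb2, chr17:34092298-34092347 for H2-Oa and chr17:34238813-34238859 for H2-Ob, on the plus strand except for H2-Aa.
H2-Aa: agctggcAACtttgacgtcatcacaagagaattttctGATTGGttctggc
H2-Eb1: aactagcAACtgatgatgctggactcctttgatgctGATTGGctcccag
H2-DMb2: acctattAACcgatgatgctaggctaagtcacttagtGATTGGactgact
H2-Eb2: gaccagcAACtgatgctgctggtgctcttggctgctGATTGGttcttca
H2-Oa: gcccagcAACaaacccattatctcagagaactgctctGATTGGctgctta
H2-Ob: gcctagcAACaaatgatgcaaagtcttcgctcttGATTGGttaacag
The gap between AAC and GATTGG was 27 bases in H2-Aa, H2-DMb2 and H2-Oa, 26 in H2-Eb1 and H2-Eb2, and 24 in H2-Ob. H2-DMb1, whose window is not printed because all 50 of its bases lie in an exon annotated from another start site, also had the pair with 27 bases between. This spacing, AAC followed after 24 to 27 bases by GATTGG, was chosen after these sequences were seen. On either strand it occurred in 0.913% of the 32851 promoter windows of all genes, and GATTGG alone occurred in 16.1%. No match was found in the window of Cd80, nor in those of H2-DMa, for which the table's start sites lie upstream of the gene as the deposited file places it. H2-Ab1, Cd74, Ciita and Cd86 had no entry. A match describes the letters in a window and is not evidence of binding. The map of motif positions shows the pair before the start site in all 7 genes, at different distances. AAC began between -130 and -74 and GATTGG between -101 and -44. For H2-DMb2 the start site used lies inside the gene as the deposited file places it.

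**Figure D1:**
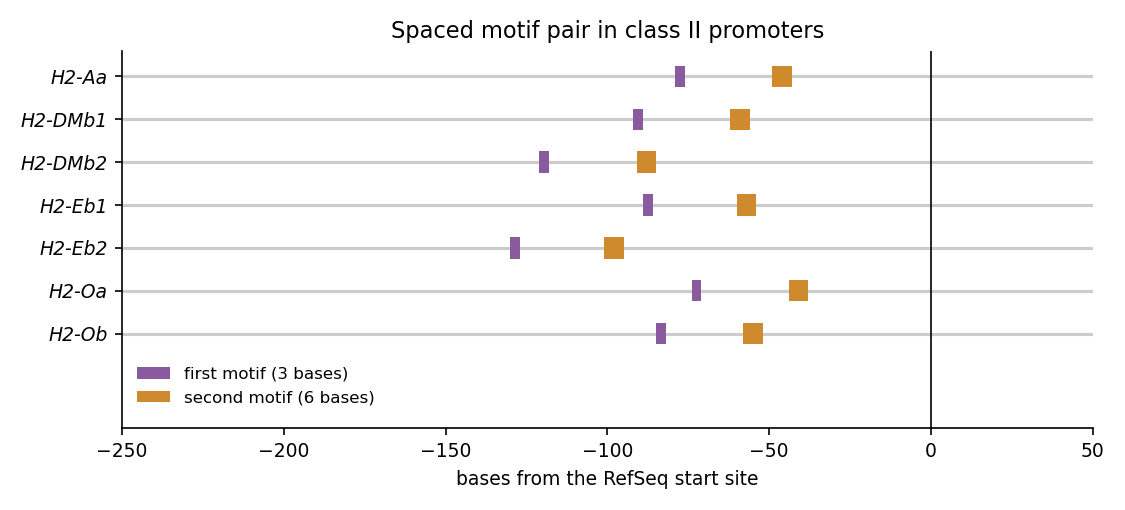
Position of AAC (purple) and of GATTGG (orange) in the promoter windows of 7 class II genes, in bases from the RefSeq start site (vertical line). AAC began between -130 (H2-Eb2) and -74 (H2-Oa), with 24 to 27 bases between AAC and GATTGG in every gene shown.

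The libraries differed in ways that touch the results below. Tnfaip3, the targeted gene, had 8.44, 12.9 and 6.80 FPKM in the libraries labelled knockout, against 4.47, 2.18 and 21.6 in BLM1, BLM2 and BLM3. The groups overlapped, with means of 9.39 and 9.42 FPKM. On the log2(FPKM + 1) scale used throughout, the log2 difference was 0.46 ± 0.69 (SE, limma adjusted p = 0.734). Its level thus showed no loss in the knockout-labelled libraries and does not bear out the label. Every direction here is between libraries as labelled. FPKM covers the whole gene and cannot check a deletion of some exons. BLM3 stood apart from the other libraries, with Pearson correlations across genes of 0.886 to 0.925, where the other 5 correlated at 0.953 to 0.982. It held 103 FPKM of the neutrophil gene Retnlg against at most 1.05 elsewhere. Of the 10696 genes tested, 27 were higher and 91 lower in the knockout-labelled libraries (limma, adjusted p under 0.05). How many reads each library held is unknown.

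The classical class II chains and the invariant chain were among the most abundant transcripts of these cells and had higher FPKM in all 3 knockout-labelled libraries than in any wild-type library. Mean FPKM was 1.48 to 1.80 times as high. H2-DMa and H2-DMb1 had higher means in the knockout-labelled libraries too, whereas H2-DMb2, H2-Oa, H2-Ob and H2-Eb2 had lower ones. The groups overlapped for H2-DMb1, H2-DMb2, H2-Oa, H2-Ob, H2-Eb2, Ciita, Cd80 and Cd86. None of the 10 genes passed the threshold of adjusted p under 0.05 over all genes (limma), where 1.10% of all genes tested did (0.252% higher, 0.851% lower). At an unadjusted p under 0.05 there were 6 of 10, against 20.3% of all genes tested, 5 of them with the knockout-labelled libraries higher (11.0% of all genes). These genes share regulators and libraries, so they are not independent. Without BLM3 the count past the threshold was also 0 of 10, where 3.84% of all genes passed (1.35% higher, 2.50% lower).

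H2-Aa, the alpha chain of the I-A molecule, had 797, 771 and 615 FPKM in A20-1, A20-3 and A20-4, against 425, 583 and 443 in BLM1, BLM2 and BLM3. H2-Ab1, its beta chain, had 896, 794 and 733 FPKM in the knockout-labelled libraries and 430, 606 and 461 in the wild-type ones. H2-Eb1, the beta chain of I-E, had 956, 911 and 828 in the knockout-labelled libraries, against 531, 722 and 563 in BLM1, BLM2 and BLM3. For all 3 genes the lowest knockout-labelled library was A20-4 and the highest wild-type library was BLM2, and the groups did not overlap. The gap between these 2 libraries was narrow for H2-Aa, at 615 in A20-4 against 583 in BLM2.

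The mean of H2-Ab1 was 808 ± 82.2 FPKM in the knockout-labelled and 499 ± 94.0 in the wild-type libraries (SD, n = 3 each). On the log2 scale this was 0.71 ± 0.17 higher (SE, limma adjusted p = 0.104), short of the threshold. H2-Aa averaged 728 ± 98.5 FPKM in the knockout-labelled and 484 ± 86.5 in the wild-type libraries (SD, n = 3), with a log2 fold difference of 0.59 ± 0.18 (SE, limma adjusted p = 0.143). H2-Eb1 averaged 898 ± 64.8 FPKM in the knockout-labelled and 605 ± 102 in the wild-type libraries, with a log2 fold difference of 0.58 ± 0.16 (SE, limma adjusted p = 0.121). In bulk RNA, a change in the share of cells that express a gene and a change in RNA per cell cannot be told apart.

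Cd74, the invariant chain (chromosome 18, 60803848 to 60812646, GRCm38) and the most abundant of the 10 transcripts, had 1890, 1754 and 1617 FPKM in the knockout-labelled libraries, against 895, 1208 and 819 in BLM1, BLM2 and BLM3. It showed the widest separation, with a mean 1.80 times as high in the knockout-labelled libraries and a log2 fold difference of 0.87 ± 0.18 (SE, limma adjusted p = 0.0829). By mean FPKM it ranked 13 among all genes in the knockout-labelled libraries and 27 in the wild-type ones. The adjusted p ran from 0.0589 without BLM2 to 0.243 without A20-4 when single libraries were left out.

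**Figure D2:**
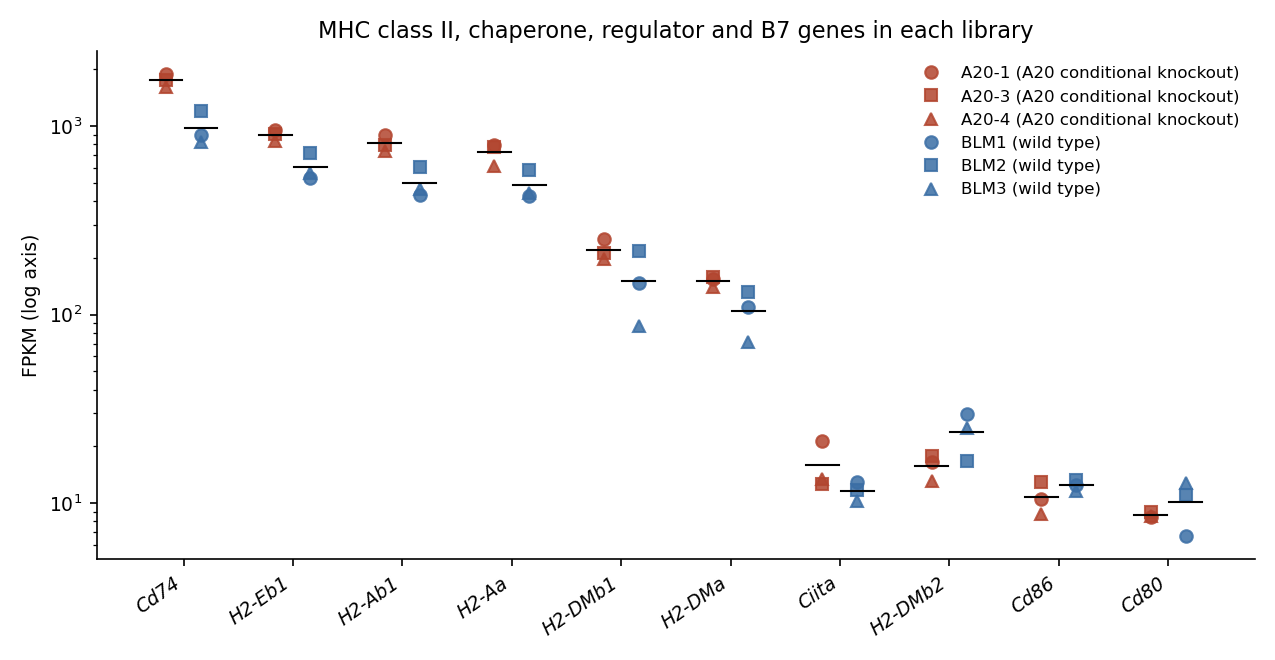
FPKM of each of the 10 genes (log axis) in the 3 knockout-labelled libraries (red) and the 3 wild-type libraries (blue), with black bars at the group means. The red points lie above all blue points for Cd74, H2-Eb1, H2-Ab1, H2-Aa and H2-DMa, and the groups overlap for the other 5 genes.

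Groups did not overlap, with the knockout-labelled libraries above, for 5 of the 10 genes, against 15.9% of all genes tested, and 0 of 10 lay wholly below, against 13.1%. The median log2 difference of the 10 genes was 0.58, against 0.02 over all genes tested, and 7 of 10 differences were positive, against 52.9% of all genes. Without BLM3 the median was 0.31. Together the 10 genes took 1.88, 1.68 and 1.56% of all FPKM in the table in A20-1, A20-3 and A20-4, against 0.927, 1.20 and 0.879% in BLM1, BLM2 and BLM3. The array weights of limma, which let libraries differ in reliability, placed 6 of the 10 past the threshold (Cd74, H2-Ab1, H2-Eb1, H2-Aa and H2-DMa higher, H2-DMb2 lower, adjusted p 0.00826 to 0.0485), but also 1934 of all genes, and they gave BLM1 a weight of 6.09 where the other libraries had 0.229 to 1.26.

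Proportions among these chains differed less between libraries than their levels. The ratio of H2-Aa to H2-Ab1 in FPKM was 0.890, 0.971 and 0.838 in the knockout-labelled libraries and 0.989, 0.962 and 0.960 in the wild-type ones. H2-Eb1 to H2-Ab1 was 1.07, 1.15 and 1.13 in the knockout-labelled libraries, against 1.24, 1.19 and 1.22 in BLM1, BLM2 and BLM3, with the knockout-labelled libraries below. Cd74 to H2-Ab1 was 2.11, 2.21 and 2.20 in the knockout-labelled libraries, against 2.08, 1.99 and 1.77 in BLM1, BLM2 and BLM3, with the knockout-labelled libraries above. The ratio of H2-Aa to H2-Ab1 overlapped between the groups. The ratios were chosen with the values known and are a description.

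H2-DM is the chaperone that loads peptide, and H2-DMa encodes its alpha chain. H2-DMa had 154, 158 and 141 FPKM in the knockout-labelled libraries, against 109, 132 and 71.4 in BLM1, BLM2 and BLM3. The groups did not overlap, the log2 difference was 0.57 ± 0.22 (SE, limma adjusted p = 0.223), and without BLM3, the lowest library, it was 0.32 ± 0.12 (SE, limma adjusted p = 0.183). H2-DMb1, the main beta chain, had 251, 213 and 198 FPKM in the knockout-labelled libraries, against 147, 216 and 86.6 in BLM1, BLM2 and BLM3, so BLM2 lay above 2 knockout-labelled libraries. Its log2 difference of 0.64 ± 0.32 (SE, limma adjusted p = 0.306) was 0.30 ± 0.19 without BLM3.

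H2-DMb2, the other beta chain gene, ran the other way. It had 16.4, 17.8 and 13.1 FPKM in the knockout-labelled libraries, against 29.8, 16.8 and 25.1 in BLM1, BLM2 and BLM3, with -0.54 ± 0.22 as the log2 difference (SE, limma adjusted p = 0.239). BLM1 and BLM3 were high, while BLM2 lay among the knockout-labelled libraries. The ratio of H2-DMb2 to H2-DMb1 was 0.0656, 0.0834 and 0.0664 in the knockout-labelled libraries, against 0.203, 0.0778 and 0.290 in the wild-type ones. Of the 50-base stretches in the longest coding H2-DMb2 transcript of GENCODE M21, 25.2% were also in that of H2-DMb1, so reads from these paralogs could be split between them and both values are uncertain.

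The same order of libraries appeared in the class II genes typical of B cells. H2-Oa, the alpha chain of the H2-DM inhibitor H2-O, had 4.13, 3.80 and 3.66 FPKM in the knockout-labelled libraries, against 11.0, 3.22 and 13.2 in BLM1, BLM2 and BLM3. H2-Ob, its beta chain, had 4.75, 3.62 and 3.53 in the knockout-labelled libraries, against 16.3, 4.54 and 13.3 in BLM1, BLM2 and BLM3. H2-Eb2, a second E beta gene, had 2.95, 2.13 and 1.42 in the knockout-labelled libraries, against 9.15, 2.25 and 7.44 in BLM1, BLM2 and BLM3. In all 3 genes BLM1 and BLM3 were high and BLM2 was close to the knockout-labelled libraries, so the groups overlapped and none was called (limma adjusted p = 0.305, 0.189 and 0.236, log2 differences -0.88, -1.17 and -1.07). Without BLM2 the difference of H2-Oa was -1.43 and that of H2-Ob -1.67, with adjusted p of 0.0236 and 0.0257 (limma). That fit called 92 of 10696 genes, 16 higher and 76 lower. Leaving out the wild-type library that overlapped removes the overlap, so these p-values are no support for a difference between the groups.

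B cell markers followed these libraries. The B cell receptor chain Cd79a had 8.54, 5.95 and 5.10 FPKM in the knockout-labelled libraries, against 36.7, 4.43 and 34.4 in BLM1, BLM2 and BLM3. Of 14 listed B cell markers 12 were in the table, and all 12 were higher in BLM1 and BLM3 than in each of the other 4 libraries. This order was found in 12.4% of all genes tested. It was chosen after the values were seen, and markers of the same cell type are not independent, so the count is a description. Cr2 is among the 12 but was not among the genes tested. The summed level of the 12 was 19.4 to 35.9 FPKM in the knockout-labelled libraries, against 146, 21.8 and 141 in BLM1, BLM2 and BLM3, and none was at 0 in any library. None of the 11 tested was called (limma, 1.10% of all genes), and Blk, Spib and Bank1 had the smallest p (adjusted p = 0.140, 0.223 and 0.262). The part of B cell RNA in the H2-O, H2-Eb2 and H2-DMb2 values was not tested. BLM1 and BLM3, with the higher B cell level, had the lower levels of H2-Aa, H2-Ab1, H2-Eb1 and Cd74 among the wild-type libraries. This is the order of 3 libraries, and whether these levels are related was not tested.

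**Figure D3:**
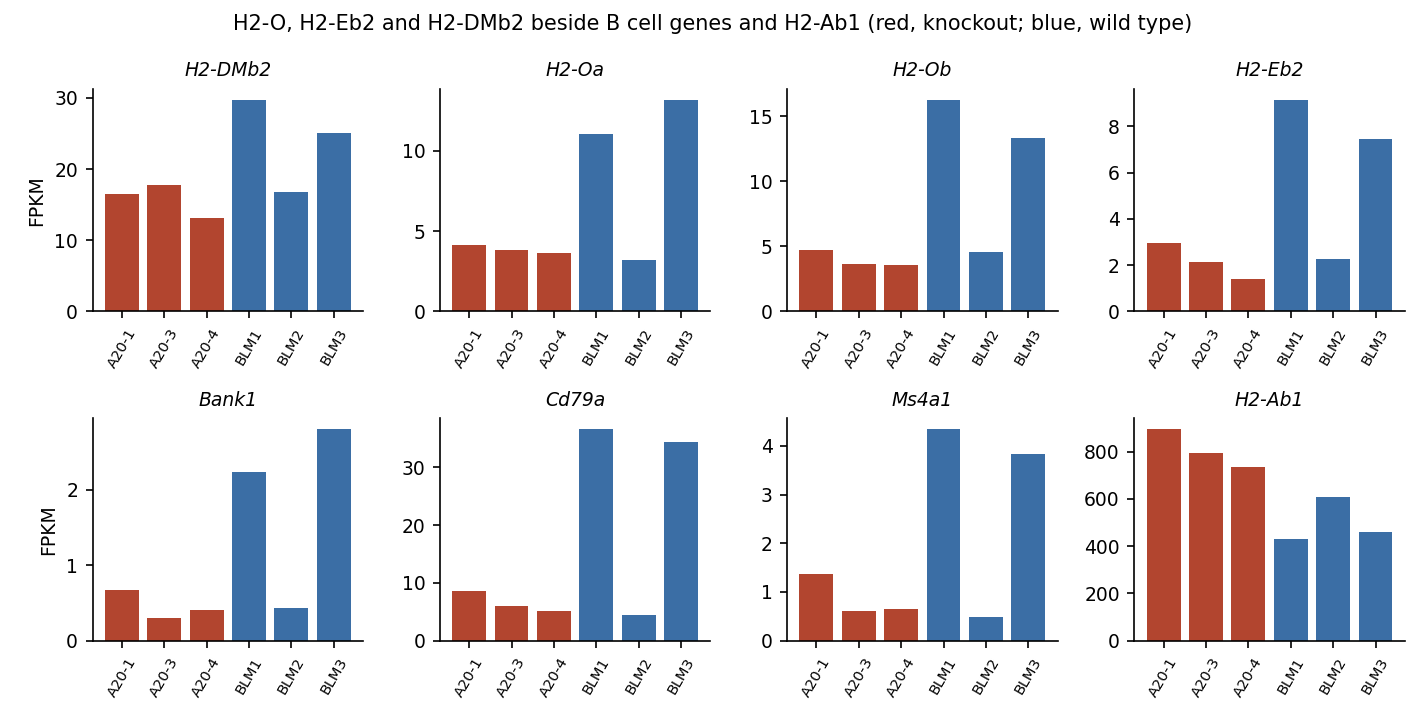
FPKM of H2-DMb2, H2-Oa, H2-Ob and H2-Eb2, of the B cell genes Bank1, Cd79a and Ms4a1, and of H2-Ab1 in each library (red, knockout-labelled; blue, wild type). BLM1 and BLM3 are the 2 highest bars in every panel other than H2-Ab1, where A20-1 is highest at 896 and BLM1 lowest at 430.

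Ciita, the coactivator of class II transcription, had 21.3, 12.7 and 13.5 FPKM in the knockout-labelled libraries, against 12.9, 11.7 and 10.2 in BLM1, BLM2 and BLM3. Only A20-1 lay clearly above the rest and the groups overlapped. The log2 difference was 0.38 ± 0.21 (SE, limma adjusted p = 0.337), with a 95% interval of -0.11 to 0.88, and without A20-1 it was 0.16. A20-1 was also the library with the highest H2-Aa, H2-Ab1, H2-Eb1 and Cd74. The gene is known to have separate promoters for myeloid, B cell and interferon-induced use, which FPKM of a whole gene does not resolve.

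Cd80 and Cd86, the B7 ligands that engage Cd28 and Ctla4 on T cells, were low, and their groups overlapped. Cd86 had 10.5, 13.0 and 8.71 FPKM in the knockout-labelled libraries, against 12.5, 13.2 and 11.6 in the wild-type ones. Its log2 difference was -0.21 ± 0.15 (SE, limma adjusted p = 0.466), with a 95% interval of -0.57 to 0.15, and it ran from -0.34 without A20-3 to -0.08 without A20-4. Cd80 had 8.42, 8.93 and 8.52 in the knockout-labelled libraries, against 6.69, 11.1 and 12.8 in BLM1, BLM2 and BLM3, so the wild-type libraries lay on either side. Its log2 difference was -0.18 ± 0.22 (SE, limma adjusted p = 0.679), with a 95% interval of -0.69 to 0.34, and it ran from -0.42 without BLM1 to -0.0022 without BLM3. These intervals leave room for changes of either sign.

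**Figure D4:**
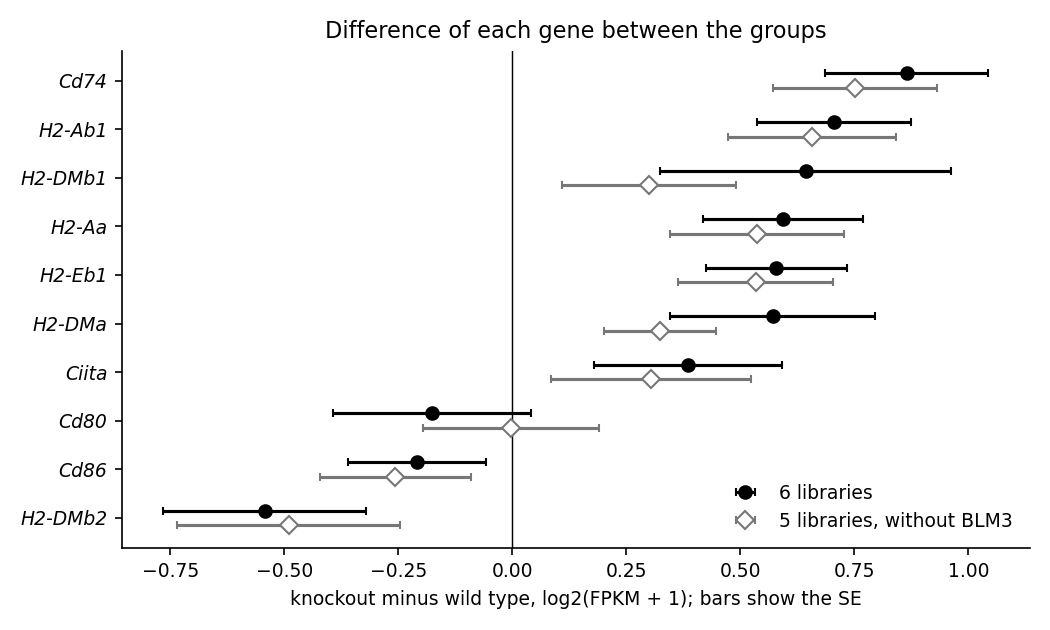
Log2 difference on the log2(FPKM + 1) scale, knockout-labelled minus wild type, with its SE, for each of the 10 genes with 6 libraries (black) and without BLM3 (open grey). The difference runs from 0.87 for Cd74 to -0.54 for H2-DMb2, and that of H2-DMb1 moves to 0.30 without BLM3.

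In order of mean FPKM, which is scaled to length, the 10 genes stood as Cd74, H2-Eb1, H2-Ab1, H2-Aa, H2-DMb1, H2-DMa, Ciita, H2-DMb2, Cd86 and Cd80 in the knockout-labelled libraries. The means of Ciita and H2-DMb2 there, 15.8 ± 4.78 and 15.8 ± 2.39 FPKM (SD, n = 3), differed by less than their spread. The ranges of H2-Eb1 and H2-Ab1 overlapped there, as did those of H2-Ab1 and H2-Aa. In the wild-type libraries H2-DMb2 (23.9 ± 6.57) stood above Cd86 (12.4 ± 0.836) and Ciita (11.6 ± 1.34), and the order of the other genes was the same.

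Upstream of Ciita, none of 10 genes of interferon gamma signalling was called (limma, 1.10% of all genes), and their median log2 difference was -0.0046 (0.14 without BLM3). Ifngr1, the ligand-binding receptor chain, had 88.3, 102 and 102 FPKM in the knockout-labelled libraries, against 68.8, 65.8 and 75.3 in the wild-type ones (0.47 ± 0.11, SE, limma adjusted p = 0.103), and the groups did not overlap. The signalling chain Ifngr2 had a log2 difference of -0.20 (limma adjusted p = 0.388). Ifng, the cytokine itself, had 3.22, 5.50 and 3.54 FPKM in the knockout-labelled libraries, against 0.808, 1.52 and 5.06 in BLM1, BLM2 and BLM3 (limma adjusted p = 0.390). It rose when BLM3 was left out (1.23, limma adjusted p = 0.0464), where 1.35% of all genes did. BLM3 was the wild-type library that overlapped the knockout-labelled ones, so leaving it out removes the overlap. That p-value is no support for a difference between the groups. Irf1, a factor through which interferon gamma reaches Ciita, had 13.2, 13.8 and 26.5 FPKM in the knockout-labelled libraries, against 9.22, 10.7 and 35.1 in BLM1, BLM2 and BLM3. Its log2 difference was 0.14 with an SE of 0.52, and without BLM3 it was 0.72 (limma adjusted p = 0.206).

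Of 18 promoter-bound factors, cofactors and lineage factors, 0 were called (limma), against 1.10% of all genes tested. Of their differences 11 were positive, against 52.9% of all genes, and the median was 0.06. The RFX subunits, which are required for class II transcription, were low. Rfx5 had a log2 difference of -0.28, Rfxank -0.21 and Rfxap 0.22, with limma adjusted p of 0.448, 0.294 and 0.287. The smallest p belonged to the coactivator genes Ncoa1 (0.57 ± 0.15, SE, limma adjusted p = 0.120) and Ep300 (0.44 ± 0.12, adjusted p = 0.123) and to Creb1, which binds the X2 box (0.92 ± 0.27, adjusted p = 0.143). For each of these 3 genes all knockout-labelled libraries lay above all wild-type ones. So did 5 of the 18 in all, against 15.9% of all genes tested, and 1 lay wholly below, against 13.1%. Without BLM3, its lowest library, the difference of Creb1 was 0.61 ± 0.13 (SE, limma adjusted p = 0.0612). Spi1, a lineage factor of macrophages, averaged 120.4 FPKM in each group, with a log2 fold difference of 0.01 ± 0.12 (SE, limma adjusted p = 0.982).

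Among genes of antigen processing in endosomes, mostly proteases, 3 protease genes were lower. Of 13 tested, 3 fell and 0 rose (limma), where 0.851% of all genes fell, and the median log2 difference was -0.28. Ctsl, which trims the invariant chain in thymic epithelium, had 35.9, 28.4 and 35.4 FPKM in the knockout-labelled libraries, against 109, 101 and 111 in the wild-type ones (-1.66 ± 0.12, SE, limma adjusted p = 0.00889). Lgmn, an asparagine endopeptidase gene, had 192, 186 and 215 in the knockout-labelled libraries, against 350, 355 and 363 in BLM1, BLM2 and BLM3 (-0.85 ± 0.11, limma adjusted p = 0.0293). The cysteine protease Ctsb had 340, 338 and 384 in the knockout-labelled libraries, against 689, 656 and 715 in BLM1, BLM2 and BLM3 (-0.96 ± 0.11, adjusted p = 0.0261). Groups were far apart for each of the 3 genes. Ctss, the main invariant chain protease of bone marrow-derived cells, had 3242, 3364 and 3386 FPKM in the knockout-labelled libraries, against 3179, 3598 and 2812 in BLM1, BLM2 and BLM3 (0.07 ± 0.15, adjusted p = 0.823), and its groups overlapped. The 3 calls were lost without A20-3 (adjusted p 0.0731 to 0.145) and without BLM1 (0.0555 to 0.122), and those of Ctsb and Lgmn were lost without A20-1, A20-4 or BLM2 too. Without BLM3, 5 fell, where 2.50% of all genes did, with the protease gene Ctsk and the protease inhibitor gene Cst3 in addition. For Cst3, BLM3 was the wild-type library that overlapped the knockout-labelled ones, so its call without BLM3 is no support for a difference.

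Genes of class II trafficking and turnover gave 0 of 13 called (limma, 1.10% of all genes) and a median of -0.02. The tetraspanins Cd63 (-0.58 ± 0.11, SE, limma adjusted p = 0.0692), Cd37 (-0.86 ± 0.22, adjusted p = 0.116) and Cd81 (0.64 ± 0.31, adjusted p = 0.300) had the smallest p, and Cd63 fell without BLM3 (adjusted p = 0.0332), where 2.50% of all genes did. March1, the ligase that marks class II for degradation, had 15.4, 8.71 and 8.25 FPKM in the knockout-labelled libraries, against 12.7, 11.7 and 9.37 in the wild-type ones, with overlap. Cd83, which opposes it, had 19.2, 25.0 and 24.7 in the knockout-labelled libraries, against 24.1, 21.2 and 18.4 in BLM1, BLM2 and BLM3. Neither was called (limma adjusted p = 0.842 and 0.714).

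Other B7 family members and T cell ligands had a median of -0.50 (-0.22 without BLM3), with 0 of 13 tested called (limma, 1.10% of all genes). Of their differences 3 were above 0, against 52.9% of all genes. The list mixes ligands that stimulate and ligands that inhibit T cells, so its median is not a measure of costimulation. The adhesion ligands Nectin2 (-0.60 ± 0.13, SE, limma adjusted p = 0.0889) and Pvr (-0.49 ± 0.13, adjusted p = 0.118) and the galectin Lgals9 (-0.51 ± 0.12, adjusted p = 0.104) had the smallest p. All 3 lay wholly below the wild-type libraries, as did 6 of the 13 in all, against 13.1% of all genes tested. Cd274, which encodes PD-L1, had 85.7, 58.1 and 53.0 FPKM in the knockout-labelled libraries, against 73.1, 77.3 and 118 in BLM1, BLM2 and BLM3 (limma adjusted p = 0.360). Without BLM3, 1 gene of the list fell, where 2.50% of all genes did, the B7 homologue Cd276 (-1.03, limma adjusted p = 0.0313).

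Neighbours in the same stretch of chromosome 17 had differences close to those of all genes. Of 19 tested, 0 were called (limma, 1.10% of all genes) and the median log2 difference was 0.04, against 0.02 over all genes. Psmb9, Tap1, Psmb8 and Tap2, the class I peptide supply genes that lie between H2-DMb1 and H2-Ob, had log2 differences of -0.11, -0.11, -0.14 and 0.08. The smallest p were those of Rxrb (0.53, limma adjusted p = 0.103), Slc39a7 (-0.18, adjusted p = 0.368) and Pbx2 (0.18, adjusted p = 0.383).

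Markers of alveolar macrophages were found in every library at widely different levels. The chitinase-like gene Chil3 was the highest, with 2998 FPKM in BLM3 as its lowest value, while the keratin gene Krt79 had 0.972 FPKM in BLM3 and Siglecf, a surface lectin that defines these cells, 11.1 to 43.5 FPKM over the 6 libraries. The ribonuclease gene Ear2 was among the higher ones (893, 839 and 805 FPKM in the knockout-labelled libraries, against 578, 669 and 341 in BLM1, BLM2 and BLM3). Of 17 tested alveolar macrophage markers, 15 had a positive difference (52.9% of all genes), 0 rose and 1 fell (Marco, a scavenger receptor, -1.87, limma adjusted p = 0.0466), with a median of 0.70. The fall of Marco passed without BLM3 but not without any of the other 5 libraries (adjusted p 0.0765 to 0.148). Without BLM3, 4 rose (Fabp1, Ear1, Krt79 and Cidec; 1.35% of all genes), 1 fell (2.50%) and the median was 0.23. Cidec and Krt79 had the next smallest p (2.47 and 2.68, limma adjusted p = 0.0747 and 0.0889). The summed level of the list was 6093 to 8508 FPKM in the knockout-labelled libraries, against 6248, 7500 and 4201 in BLM1, BLM2 and BLM3, and no marker was at 0. Among the wild-type libraries, BLM2 had the highest class II sum and the highest sum of these markers. Chil3 alone made up 4765 of the 7500 FPKM of markers in BLM2. Siglecf, Itgax, Fabp4 and Ear1 were higher in BLM1 than in BLM2, and the other markers were higher in BLM2. The part of cell makeup in the class II difference was not tested. Among ratios chosen after the values were seen, H2-Ab1 to Spi1 was 7.35, 6.55 and 6.21 in the knockout-labelled libraries, against 3.61, 4.49 and 4.30 in BLM1, BLM2 and BLM3, without overlap. H2-Ab1 to Ear2 was 1.00, 0.946 and 0.911 in the knockout-labelled libraries, against 0.744, 0.906 and 1.35 in BLM1, BLM2 and BLM3, with overlap.

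Dendritic cells are known to carry much class II, and their markers had a lower summed level in the knockout-labelled libraries than in BLM1 and BLM2. The 15 of 16 listed markers in the table summed to 185 to 202 FPKM in the knockout-labelled libraries, against 307, 274 and 164 in BLM1, BLM2 and BLM3. Of 14 tested, 0 were called, against 1.10% of all genes, and 3 had a positive difference, against 52.9% (limma). Without BLM3, 5 fell, against 2.50% of all genes, and 1 rose, against 1.35%. The 5 were Xcr1, Flt3, Clec9a, Ccl17 and Ccl22, and the 1 was Cd8a, which CD8 T cells also express. For each of these genes, BLM3 was the wild-type library that kept the groups from separating. Leaving it out removes the overlap, so these calls are no support for a difference between the groups. With 6 libraries the smallest p belonged to Ccr7 (-0.68, limma adjusted p = 0.175), Xcr1 (-0.97, adjusted p = 0.193) and Wdfy4 (0.57, adjusted p = 0.336).

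Recruited and interstitial macrophage markers, tested as 15 entries with Itgam under separate gene IDs, gave 4 falls, where 0.851% of all genes fell. Among them were the complement chains C1qa, C1qb and C1qc (limma adjusted p 0.0134 to 0.0140). The calls of these 3 chains were lost without A20-3 (adjusted p 0.0943 to 0.0946) and without BLM1 (0.0661 to 0.0763). Without BLM3, 5 entries of the list fell, where 2.50% of all genes did, with Folr2 in addition. The list, with each Itgam entry counted, summed to 452 to 583 FPKM in the knockout-labelled libraries. In BLM1, BLM2 and BLM3 it summed to 1320, 1375 and 1726. Lung epithelium markers, in cells that can also carry class II, had 0 of 13 called. Krt18 (-1.49, limma adjusted p = 0.0592), Krt8 (-1.08, 0.135) and Scgb1a1 (1.76, 0.184) had the smallest p. Epithelium markers summed to 321 to 402 FPKM in the knockout-labelled libraries, against 218, 226 and 83.5 in BLM1, BLM2 and BLM3. Scgb1a1 alone had 291, 217 and 112 FPKM in the knockout-labelled libraries, against 66.6, 111 and 23.1 in the wild-type ones. This gene made up 291 of the 402 FPKM in A20-1. Of the 13 tested, 3 lay wholly above the wild-type libraries and 3 wholly below. The sum is therefore not a measure of epithelial RNA as a whole. T and NK cell markers had 0 of 11 called and summed to 280 to 312 FPKM in the knockout-labelled libraries, against 226, 190 and 414 in BLM1, BLM2 and BLM3, with Cd2 (0.50, limma adjusted p = 0.175), Cd8b1 (0.89, 0.421) and Cd3d (-0.67, 0.434) at the smallest p. Neutrophil markers had 0 of 6 called and summed to 82.9 to 129 FPKM in the knockout-labelled libraries, against 139, 149 and 2770 in BLM1, BLM2 and BLM3, with S100a8 (-2.39, limma adjusted p = 0.208), Cxcr2 (-1.49, 0.303) and S100a9 (-2.50, 0.400) at the smallest p. Beside the 0 called in the epithelium, T and NK and neutrophil lists, 1.10% of all genes tested were called (limma). Ly6g and Retnlg of the neutrophil list were at 0 in some libraries. Without BLM3, where 2.50% of all genes fell and 1.35% rose, S100a8 fell (-1.25, limma adjusted p = 0.0185), as did Krt8 and Krt18 of the epithelium list (0.0268 and 0.0114), and Cd8b1 and Nkg7 of the T and NK list rose (0.0273 and 0.0274). For Cd8b1 and Nkg7, BLM3 was the wild-type library that kept the groups from separating, so their calls without it are no support for a difference. The part of each of these cell types in the class II values was not tested.

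**Figure D5:**
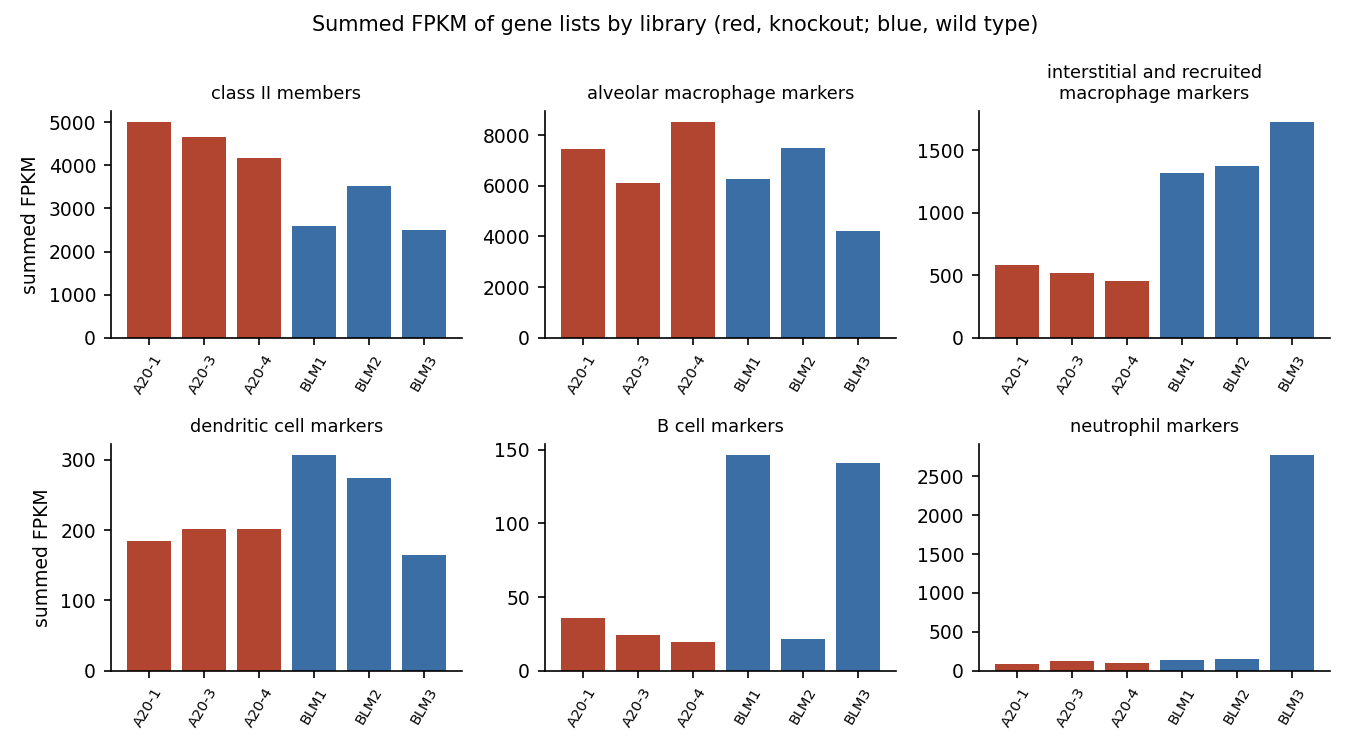
Summed FPKM of the 10 class II genes and of 5 lists of cell type markers in each library (red, knockout-labelled; blue, wild type). Class II sums lie at 4176 to 5001 in the knockout-labelled libraries and at 2599, 3520 and 2505 in BLM1, BLM2 and BLM3, B cell markers are high in BLM1 and BLM3, and neutrophil markers in BLM3.

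Genes whose levels over the 6 libraries were most like the mean standardised profile of H2-Aa, H2-Ab1, H2-Eb1 and Cd74 were Atad2, Gda, Bin2, Atg9a, Kpnb1 and Gal, with Pearson correlations of 0.98 to 0.99. The purine enzyme gene Gda had 94.1, 82.7 and 75.7 FPKM in the knockout-labelled libraries, against 47.0, 60.6 and 43.0 in BLM1, BLM2 and BLM3. Gal, which encodes the neuropeptide galanin, had 19.5, 19.8 and 16.9 in the knockout-labelled libraries, against 2.52, 8.41 and 1.66 in BLM1, BLM2 and BLM3. With 6 libraries in 2 groups, such values describe the order of the libraries only, and none of these 6 genes was called (limma adjusted p 0.0829 to 0.294).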

How the data were processed

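The authors deposited 1 table of FPKM per gene for 6 libraries, per the file headers, with protein-coding genes only. The submitters' processing notes name GRCm38. Aligner, quantifier and use of strand in counting: not given in the sources used here. RNA was prepared with a stranded kit, per the labels' protocols. Columns were assigned to groups by name, and no column was left out. From the deposited FPKM, log2(FPKM + 1) was tested in the 10696 genes whose FPKM averaged 1 or more, using limma 3.58.1 in R 4.3.3 (eBayes with trend), with a two-sided p adjusted by Benjamini-Hochberg across the genes tested and a threshold of 0.05. A fold change on this scale understates that of low genes. The fit was also run on simulated data with added differences, and the outcome is not reported here. Depth is unknown, so no counting interval is given. At most 1 tested gene had equal values in any pair of libraries.

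The members, lists and rule for named genes were chosen with earlier results of these data known. Named genes are the members, Tnfaip3, each list's called genes and its 3 smallest p, and the 6 genes most like the class II profile; others were chosen after their values were seen. Promoters come from RefSeq (GRCm38.p6). Some genes that this rule names are not reported here.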

Additional observations from a re-analysis of the deposited data

How the results depend on the processing

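The count of class II genes past the threshold was 0 of 10 with 6 libraries, with a pseudocount of 0.1 or 5, with no filter or a minimum of 5 FPKM, under TPM or quantile scaling, without a trend, and without any single library (0 to 0), but 6 with array weights. The count over all genes was 118, against 75 with a minimum of 5 FPKM, 1934 with array weights, and 0 to 411 when single libraries were left out (0 without A20-3, 4 without BLM1, 14 without A20-4, 35 without A20-1, 92 without BLM2 and 411 without BLM3). Under TPM there were 41 rises and 64 falls, against 27 and 91 as deposited, with the median of all genes at 0.10 in place of 0.02. No class II gene changed sign except Cd80, at 0.23 with array weights. Tnfaip3 ran from -0.14 without BLM2 to 1.27 without BLM3. The cause of these shifts was not tested. No paired analysis was possible because the numbers in the table's column names are not tied to the replicate numbers of the sample titles. Genes under 5 FPKM have no value with that minimum. The size of difference that 3 libraries against 3 can show is not reported here, and the depth is unknown.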
